A study of Bos taurus with 40 samples.

Results

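Adrenomedullin (ADM), the subunits of its receptor (CALCRL, RAMP1, RAMP2 and RAMP3) and vascular endothelial growth factor A (VEGFA) are the 6 genes described here. They were chosen from a list of symbols, and all 6 of the 6 listed were found among the 13570 genes of the count tables, of which 13148 had at least 1 read and were tested. ADM was chosen by its difference between cows and bulls in these same libraries, so its values by sex are given as a description, without a test, and the same is done for VEGFA. The study took 4 tissues from 10 Korean cattle, 5 cows and 5 bulls, at slaughter at over 22 months of age: pituitary gland, liver, fat of the abdomen and the loin muscle longissimus dorsi. Each animal gave 1 library of each tissue, so the 8 groups are the cows and the bulls in each of the 4 tissues, with 5 libraries a group and 40 in all. The labels name no treatment or genotype, and the animals were raised at the same experimental branches.

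Adrenomedullin is a secreted peptide that widens blood vessels and keeps the lining of blood and lymph vessels tight. It acts on CALCRL, a receptor that reaches the cell surface only with a small partner protein. Paired with RAMP2 or RAMP3, CALCRL binds adrenomedullin, and paired with RAMP1 it binds calcitonin gene-related peptide (CGRP), the dilator released by sensory nerves. VEGFA, the main growth signal of blood vessel endothelium, is like ADM a gene that rises when oxygen is short.

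The libraries held 5173092 to 19165864 reads on genes, with a median of 10005607, and the fewest reads on any of the 6 genes in any library were 2, for RAMP1 in a liver. Levels are given as CPM, the reads of a gene scaled to a fixed total of reads per library with TMM (trimmed mean of M-values) factors, and they are compared between libraries and not between genes, since no transcript lengths were used here. Defining markers of each tissue stood where the labels put them: the summed CPM of albumin and 3 other liver genes was at least 80134 in every liver library and at most 444 elsewhere, and PRL, the prolactin gene, reached at most 311 CPM outside the pituitary, 0.205% of its pituitary mean. The same percentage of the mean ADM level in fat would be 1.10 CPM. The adipocyte marker ADIPOQ was not analysed here, and the fat label was checked on LEP, PLIN1 and FABP4. Of the markers of sex, the liver library labelled bull 3 went against its label, with XIST at 1401 CPM, inside the range of the cow livers (681 to 2179), and no read of DDX3Y, USP9Y or ZFY. The fat library of bull 5 correlated least with the other fat libraries (mean r = 0.906, against 0.920 to 0.958 for the rest), and the summed CPM of those 3 Y-linked genes was 2.16 there and 39.98 to 44.8 in the fat of the other bulls. XIST was at 1.39 CPM in that library, against 316 to 981 CPM in the fat of the cows. The tissue comparisons were therefore also fitted without these 2 libraries, and the sex comparisons without each of them or without the fat of cow 2, described further down.

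ADM was by far highest in fat. Its mean level was 538 ± 388 CPM in fat, 54.6 ± 47.7 CPM in muscle, 13.98 ± 8.36 CPM in liver and 13.3 ± 7.25 CPM in the pituitary gland (SD, n = 10 each). The lowest fat library, at 224 CPM, lay above the highest muscle library, at 147 CPM, so the tissues did not overlap, and fat was above muscle in 10 of 10 animals. The fitted log2 fold change of fat against muscle was 3.37 ± 0.35 (SE), or 10.4-fold (adjusted p = 3.58e-10, edgeR quasi-likelihood test). Without the liver of bull 3 and the fat of bull 5 the change of muscle against fat was -3.52. Muscle was in turn above liver in 10 of 10 animals, and in 9 of 9 without bull 3, by 1.76 ± 0.35 on the log2 scale (adjusted p = 4.99e-05). Without the 2 libraries this was 1.56. The ranges of the tissues overlapped. Liver and pituitary gland, next to each other at the low end, did not differ beyond their spread: the pituitary was 0.13 higher on the log2 scale (95% interval -0.56 to 0.82, adjusted p = 0.777), while its mean CPM was the lower one. In bulk tissue, fewer cells of a type and less RNA per cell cannot be told apart, here or in any comparison that follows.

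**Figure D1:**
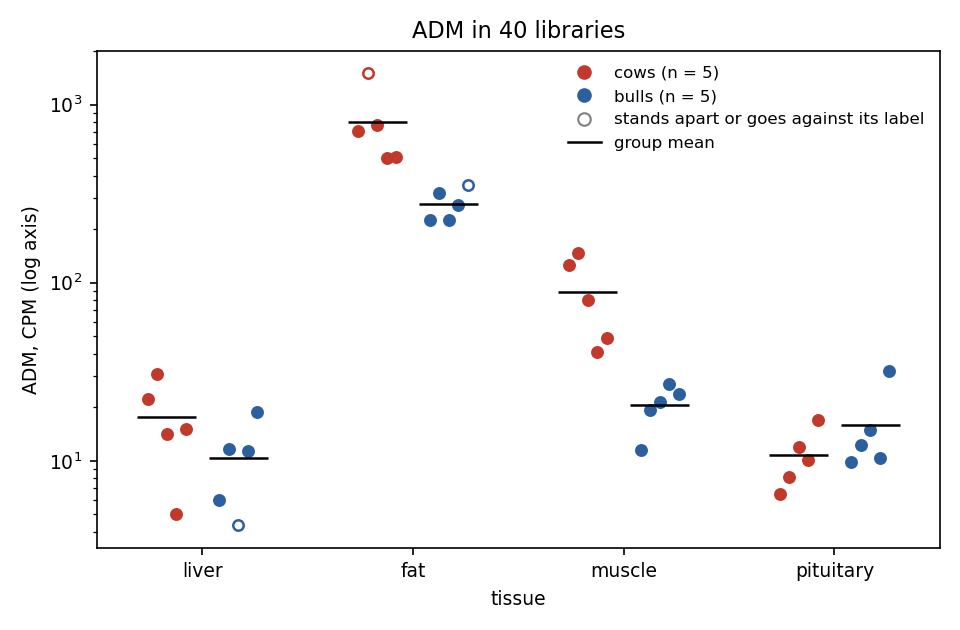
ADM in CPM (log axis) in each of the 40 libraries by tissue, cows in red and bulls in blue, with the mean of each group of 5 as a black line and open circles for the liver of bull 3, the fat of bull 5 and the fat of cow 2. All 10 fat libraries, from 224 to 1498 CPM, lie above every library of the other tissues, and cows and bulls separate in fat and in muscle.

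CALCRL, the receptor protein that all the partner subunits share, had the flattest profile of the 6 genes. Its mean level was 64.8 ± 31.1 CPM in the pituitary gland, 45.9 ± 15.5 CPM in liver, 44.9 ± 23.6 CPM in fat and 39.8 ± 11.1 CPM in muscle (SD, n = 10 each). No neighbours in that order differed beyond their spread, with adjusted p from 0.132 for pituitary against liver to 0.879 for fat against liver (edgeR quasi-likelihood test). Of the 6 tissue pairs only the extremes differed, the pituitary being 0.70 ± 0.29 (SE) above muscle on the log2 scale (adjusted p = 0.0327). With single animals left out, that call was lost in 3 of 10 fits: the difference was 0.56 without bull 3 (adjusted p = 0.116), 0.66 without cow 1 (adjusted p = 0.0666) and 0.53 without cow 3 (adjusted p = 0.117). The intervals of the other pairs allow differences of some size, for example -0.63 to 0.51 on the log2 scale for fat against liver. On plain library sizes, without TMM factors, the mean CALCRL levels lay further apart. They were 90.8 CPM in the pituitary gland, 58.0 CPM in fat, 36.2 CPM in liver and 29.1 CPM in muscle.

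The 3 partner subunits ran in 3 different tissue orders. RAMP1, the partner that makes the CGRP receptor, was highest in the pituitary gland at 68.9 ± 45.6 CPM, followed by muscle at 19.1 ± 12.3 CPM, liver at 4.71 ± 3.08 CPM and fat at 4.02 ± 4.41 CPM (SD, n = 10 each). The pituitary was above muscle by 1.85 ± 0.46 (SE) on the log2 scale (adjusted p = 0.000767) and muscle above liver by 1.95 ± 0.48 (adjusted p = 0.00064), each in 10 of 10 animals, the latter in 9 of 9 without bull 3. Liver and fat, the pair at the low end, were not told apart (0.25 ± 0.49 higher in liver, adjusted p = 0.669, edgeR quasi-likelihood test). RAMP1 counts were thin in these 2 tissues, with a median of 38 reads in liver and 29 in fat and as few as 2 and 3.

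RAMP2, a partner that makes the adrenomedullin receptor, ran through all 4 tissues in a graded order with fat at the top. Its lowest, median and highest levels were 98.0, 232 and 950 CPM in fat, 35.4, 64.4 and 162 CPM in muscle, 13.5, 24.6 and 36.6 CPM in liver and 7.75, 14.5 and 23.0 CPM in the pituitary gland (n = 10 each). Every neighbouring pair in that order passed the edgeR quasi-likelihood test: fat was 1.95 ± 0.30 (SE) above muscle on the log2 scale (adjusted p = 9.15e-07), muscle 1.43 ± 0.30 above liver (adjusted p = 9.24e-05) and liver 0.80 ± 0.31 above the pituitary (adjusted p = 0.0222). Their ranges overlapped all the same, and liver exceeded the pituitary in 7 of 10 animals (7 of 9 without bull 3). This last call was lost when cow 1, cow 2 or cow 3 was left out, with a change of pituitary against liver of -0.67 (adjusted p = 0.0645), -0.68 (adjusted p = 0.0689) and -0.63 (adjusted p = 0.0855). The top value in fat belonged to bull 5, and without that library and the liver of bull 3 the change of muscle against fat was -1.74.

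RAMP3, the other partner of the adrenomedullin receptor, showed a different split, with pituitary and liver on one side and fat and muscle on the other. Levels ran from 72.4 to 240 CPM in the pituitary gland (median 108), from 55.4 to 219 CPM in liver (median 83.9), from 2.12 to 21.2 CPM in fat (median 9.33) and from 1.59 to 13.5 CPM in muscle (median 10.1; n = 10 each). No liver library came near the fat range, and liver was above fat by 3.08 ± 0.32 (SE) on the log2 scale, in 10 of 10 animals and in 9 of 9 without bull 3 (adjusted p = 2.68e-10). Within each side the tissues were not told apart: pituitary was 0.45 ± 0.32 above liver (adjusted p = 0.215) and fat 0.37 ± 0.33 above muscle (adjusted p = 0.35, edgeR quasi-likelihood test).

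**Figure D2:**
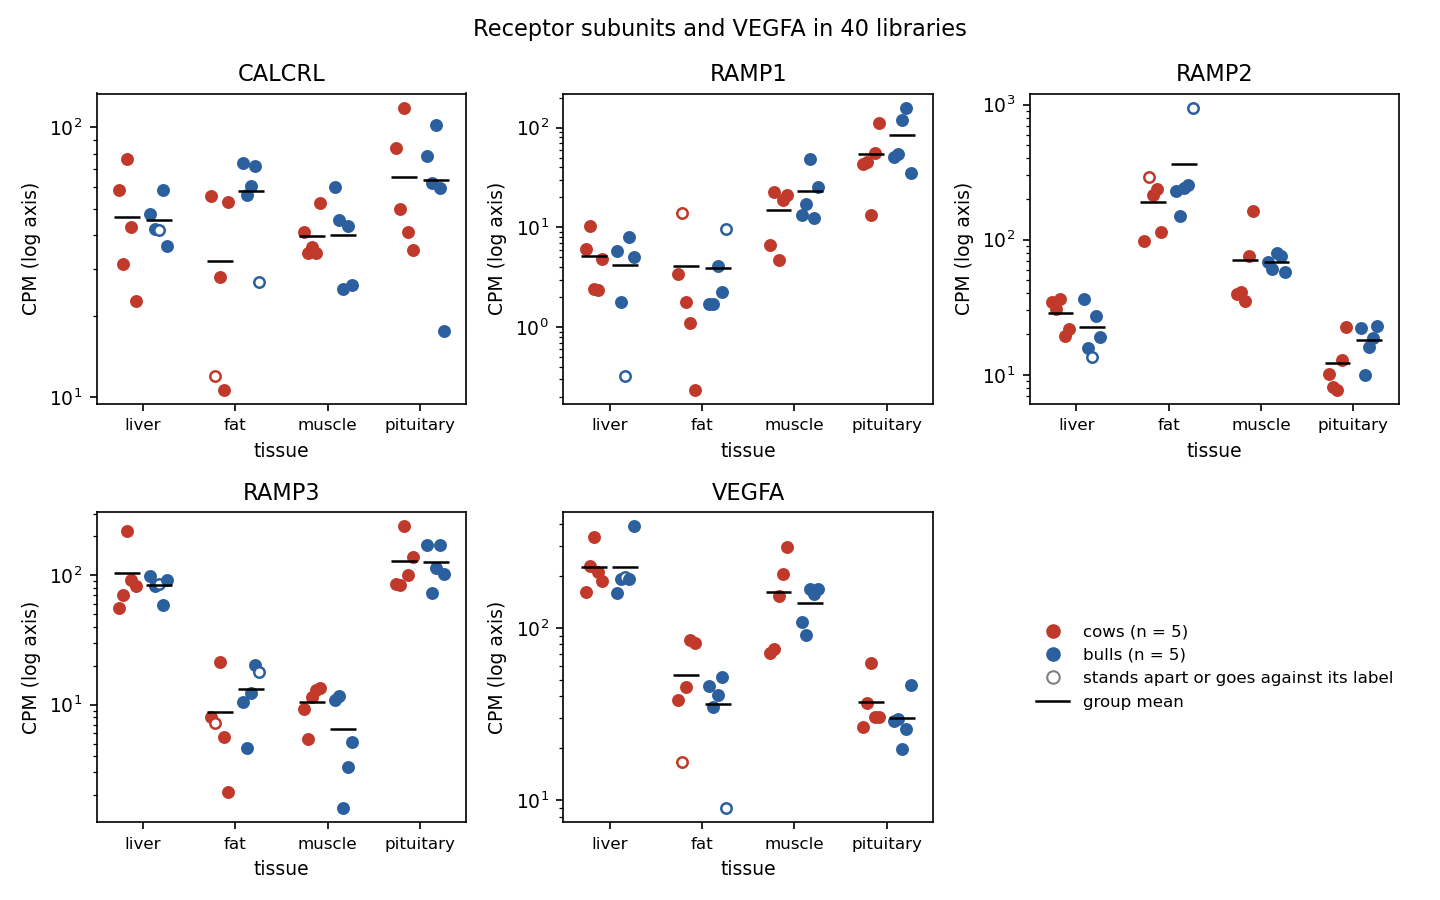
CALCRL, RAMP1, RAMP2, RAMP3 and VEGFA in CPM (log axes, each panel with its own range) in the 40 libraries by tissue, cows in red and bulls in blue, with group means as black lines and open circles for the liver of bull 3, the fat of bull 5 and the fat of cow 2. CALCRL lies at similar levels in the 4 tissues, RAMP2 peaks in fat, RAMP1 in the pituitary gland, and RAMP3 is high in liver and pituitary.

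Since RAMP2 and RAMP3 compete for the same receptor protein, their balance was followed across tissues as the log2 ratio of their reads in each library. A ratio between 2 genes has no absolute meaning without their lengths, but its shift between tissues does not depend on them. The RAMP2 to RAMP3 ratio lay between 3.34 and 5.72 in fat and between 1.61 and 5.53 in muscle, as opposed to -2.64 to -0.68 in liver and -4.94 to -2.14 in the pituitary gland. Every fat and muscle library was thus above every liver and pituitary library. The ratio of RAMP1 to RAMP2 was highest in the pituitary, from 0.62 to 3.09, and lowest in fat, from -8.69 to -4.37, with muscle (-2.93 to -0.71) and liver (-5.08 to -1.55) between them. The ratio of the ligand ADM to CALCRL was 3.58 ± 1.75 in fat, 0.04 ± 1.34 in muscle, -1.89 ± 1.12 in liver and -2.24 ± 1.31 in the pituitary gland (SD, n = 10 each). These ratios combine genes already described and were not tested again.

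**Figure D3:**
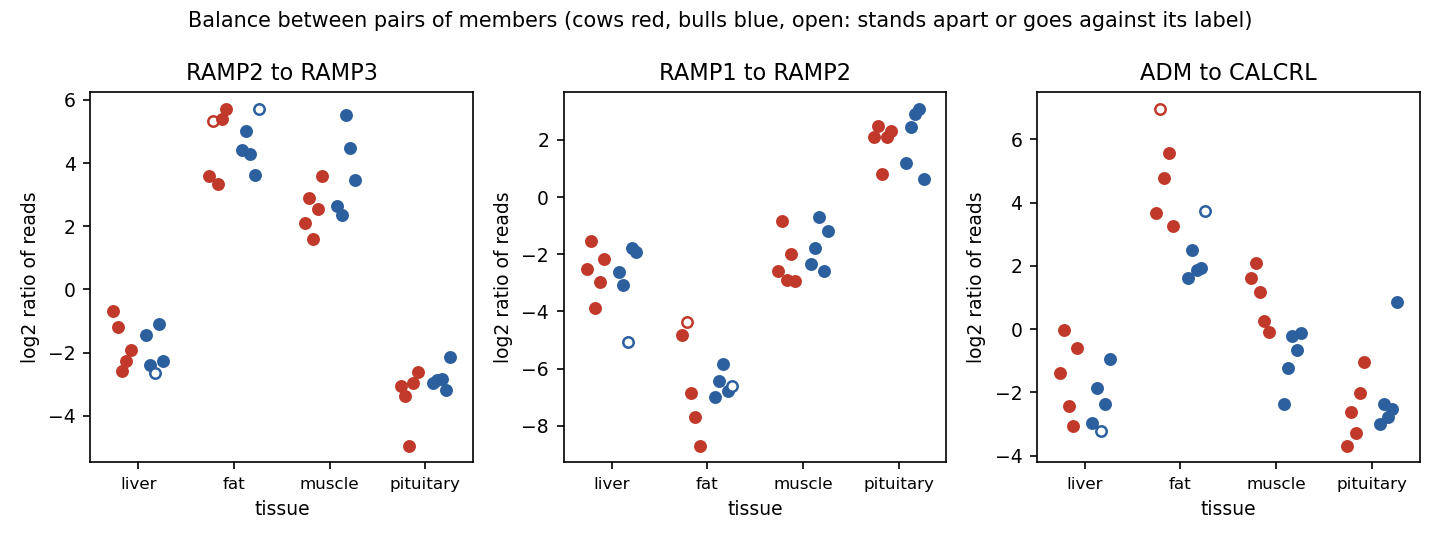
Log2 ratio of reads in each of the 40 libraries for RAMP2 to RAMP3, RAMP1 to RAMP2 and ADM to CALCRL, by tissue, with cows in red, bulls in blue and open circles for the liver of bull 3, the fat of bull 5 and the fat of cow 2. The RAMP2 to RAMP3 ratio is at least 1.61 in all fat and muscle libraries and at most -0.68 in all liver and pituitary libraries.

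VEGFA was highest in liver and muscle, at 225 ± 76.4 and 149 ± 68.4 CPM, and lower in fat and pituitary gland, at 44.8 ± 24.2 and 33.7 ± 12.3 CPM (SD, n = 10 each). Its tissue order differed from that of ADM, which peaked where VEGFA was low. Muscle was above fat by 1.75 ± 0.27 (SE) on the log2 scale in 10 of 10 animals (adjusted p = 8.19e-07, edgeR quasi-likelihood test). Leaving out the liver of bull 3 and the fat of bull 5 gave 1.45. Liver was 0.60 ± 0.27 above muscle, in 9 of 10 animals (8 of 9 without bull 3), and just missed the threshold (adjusted p = 0.0519). With the animal as a replicate block, which uses that the tissues of an animal are paired and keeps the liver labelled bull 3 with that animal, the change of muscle against liver was -0.67 and passed (adjusted p = 0.0237). It also passed without bull 5 (-0.64, adjusted p = 0.0207), without cow 4 (-0.67, adjusted p = 0.0438) and without cow 5 (-0.78, adjusted p = 0.0148). Fat and pituitary were not told apart (0.40 ± 0.27 higher in fat, adjusted p = 0.196), but without bull 5 the change of pituitary against fat was -0.64 (adjusted p = 0.0215).

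Counting calls, 25 of the 36 gene and tissue pair combinations passed, 6 of 6 pairs for RAMP2, 5 for ADM and RAMP1, 4 for RAMP3 and VEGFA and 1 for CALCRL. Most genes differ between these tissues, so the counts have to be read against the background. The 6 genes gave 4 calls in fat against liver, where 64.3% of all genes tested passed, 4 in muscle against liver (62.1%), 3 in pituitary against liver (64.5%), 4 in muscle against fat (59.6%), 4 in pituitary against fat (64.6%) and 6 in pituitary against muscle (64%). These shares lie around the background, and a call between tissues was therefore nothing particular to these genes. The share of all genes without overlap between tissues is not given here, so the gaps described above are not read as particular to these genes either. Without the liver of bull 3 and the fat of bull 5, 27 combinations passed, among them all 25 with the same sign. The log2 fold changes moved by at most 0.45, in RAMP2 in fat against liver.

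Between the sexes, ADM was higher in cows in fat and muscle, with no overlap in either tissue. In fat the cows had 707, 1498, 771, 503 and 506 CPM and the bulls 225, 318, 224, 272 and 352 CPM. The lowest cow lay above the highest bull, and the fitted log2 fold change of bulls against cows was -1.53 ± 0.37 (SE), which is 2.89-fold higher in cows. In muscle the cows had 126, 147, 80.3, 40.9 and 49.2 CPM and the bulls 11.5, 19.2, 21.4, 27.0 and 23.6 CPM, with a log2 fold change of -2.11 ± 0.38, or 4.33-fold higher in cows. The direction was the same in liver but the sexes overlapped, the cows having 22.3, 30.9, 14.2, 5.05 and 15.2 CPM and the bulls 6.01, 11.6, 4.35, 11.4 and 18.8 CPM (-0.71 ± 0.44, and -0.54 without the liver labelled bull 3). In the pituitary gland the bulls were on average the higher ones, with 9.86, 12.2, 14.8, 10.4 and 32.0 CPM against 6.50, 8.13, 12.03, 10.1 and 16.95 CPM in cows (0.56 ± 0.36). Most of that pituitary difference came with bull 5, without which it was 0.14. The study also measured ADM by qRT-PCR in these tissues of cattle, with fewer animals of each sex. There it reported no significant sex difference for ADM in any single tissue or over all of them.

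The choice of ADM fixes how its sex values can be read. By the edgeR likelihood ratio test 0.0685% of all genes tested were called higher in cows in fat and 0.0456% higher in bulls, and in muscle these shares were 0.38% and 0.137%. Non-overlapping sexes were found for 1.29% of genes in fat and 1.65% in muscle. Nothing is read from where ADM stands against these shares, since the same values chose it. Nor is its place past that test's threshold in fat or muscle read as a test result, and in fat it was not steady. It was lost under the quasi-likelihood test (as in muscle), with filterByExpr, which drops genes with few reads, and on leaving out cow 1, 2 or 3 or bull 1, 2, 3 or 4. With single animals left out the log2 fold change lay between -1.66 and -1.17 in fat and between -2.29 and -1.86 in muscle. In the model of sex over the 4 tissues, where 1.35% of genes were called higher in cows and 0.335% higher in bulls, ADM had a log2 fold change of -0.97 ± 0.25. Without the liver of bull 3 and the fat of bull 5 it was -0.95. With the animal as a replicate block in voom it was -1.03, and ADM was not called.

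**Figure D4:**
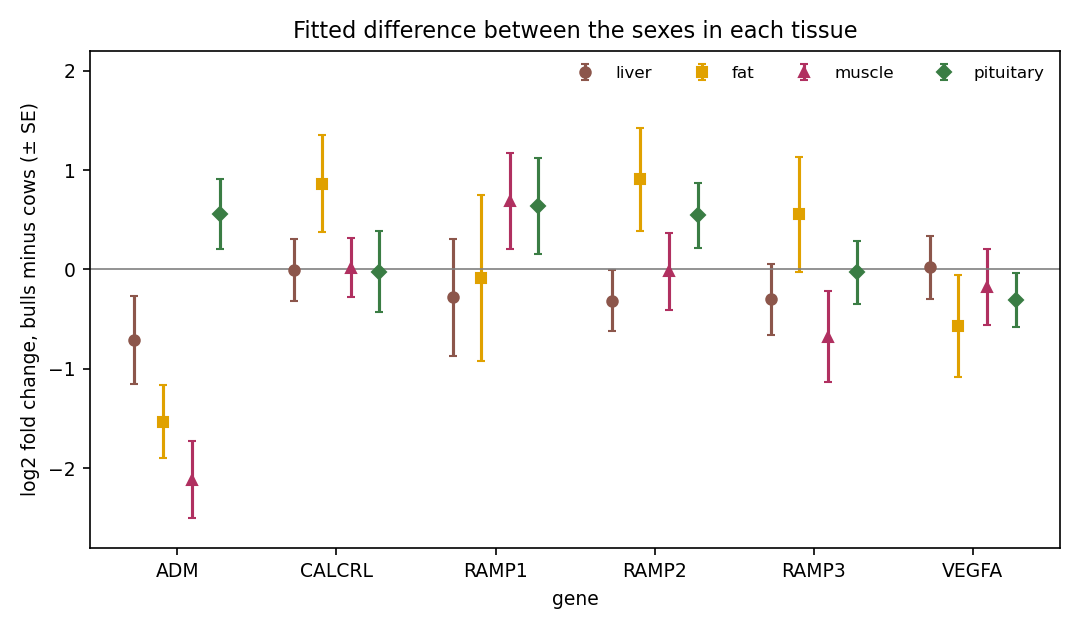
Fitted log2 fold change of bulls against cows (± SE, 5 cows and 5 bulls) for the 6 genes in each tissue, where values below 0 are higher in cows. ADM has -1.53 in fat and -2.11 in muscle, whereas the receptor subunits lie between -0.68 and 0.91.

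Muscle holds some fat cells, and fat is the tissue with the most ADM, so the fat genes LEP, PLIN1 and FABP4 were followed in the muscle libraries. Their summed CPM in muscle ranged from 22.4 to 479 in cows and from 55.6 to 195 in bulls. As a share of the level in the same animal's fat this was 0.205% to 12.8% in cows and 0.493% to 2.19% in bulls. Multiplied by ADM in the same animal's fat, the share gives 16.3, 3.08, 1.98, 9.17 and 64.5 CPM in the muscle of cows 1 to 5, which had 126, 147, 80.3, 40.9 and 49.2 CPM of ADM. The product was below the measured level in 4 cows and above it in cow 5. In bulls it was 1.49 to 5.96 CPM, beside 11.5 to 27.0 CPM measured. Of 8 white blood cell markers, 1 passed the test in muscle, CD14, which was lower in bulls (log2 fold change -1.40 ± 0.34, adjusted p = 0.0233, edgeR likelihood ratio test). In sign, 7 of the 8 were below 0 there, as were 7 in the pituitary gland and 5 in both liver and fat. None was called in these 3 tissues. Over the 4 tissues 8 of 8 were below 0 and CD3E was called (-1.10 ± 0.28, adjusted p = 0.0197, edgeR likelihood ratio test). That model counted the 4 libraries of an animal as independent. The summed level of the 8 in muscle was 250 to 420 CPM in cows and 66.9 to 270.3 CPM in bulls. In the pituitary, where ADM was on average higher in bulls, it was 111 to 226 CPM in cows and 71.6 to 262 CPM in bulls. The part of fat cells and of white blood cells in the ADM difference was not tested.

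No receptor subunit passed the test between cows and bulls in any tissue. Over the 16 combinations of CALCRL, RAMP1, RAMP2 and RAMP3 with the tissues, the log2 fold change of bulls against cows lay between -0.68 (RAMP3 in muscle) and 0.91 (RAMP2 in fat), 0 were called, 0 had an unadjusted p under 0.05, and the smallest adjusted p was 0.612 (edgeR likelihood ratio test). The quasi-likelihood test called none of them either. In the model of sex over the 4 tissues their adjusted p ran from 0.552 (RAMP2) to 0.85 (RAMP3). Without the liver of bull 3 and the fat of bull 5 they ran from 0.634 to 0.838. The sexes overlapped for each of these genes in each tissue. In liver, 0.0685% of all genes were called higher in bulls, 0.106% higher in cows and 0.548% did not overlap, and in the pituitary gland the shares were 0.555%, 0.19% and 1.34%. The lack of a call does not show equal levels, since the standard errors ran from 0.29 to 0.83 and the 95% intervals reached from -1.72 to 1.92, the widest being those of RAMP1 in fat.

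CALCRL had fitted changes between the sexes near 0 outside fat, with log2 fold changes of 0.02 ± 0.29 in muscle, -0.02 ± 0.41 in the pituitary gland and -0.00 ± 0.31 in liver (0.01 without the liver labelled bull 3). In fat its values lay further apart, with 55.9, 11.96, 27.9, 10.7 and 53.1 CPM in cows and 73.8, 56.4, 60.8, 71.8 and 26.7 CPM in bulls (0.86 ± 0.49, adjusted p = 0.755, 1.05 without bull 5 and 0.66 without cow 2). Here 4 of the bulls were above all cows and bull 5 was below 3 of them. RAMP2 in fat had 98.0, 290.5, 215, 237 and 114 CPM in cows and 228, 150, 241, 252 and 950 CPM in bulls. Its fitted change of 0.91 ± 0.52 (adjusted p = 0.756) dropped to 0.18 without bull 5 and to 0.37 without bull 5 and cow 2. RAMP1 in fat changed sign with single libraries, from -0.09 with all of them to -0.75 without bull 5 and 1.23 without cow 2. In the pituitary gland RAMP1 and RAMP2 were on average higher in bulls, by 0.64 ± 0.48 (adjusted p = 0.699) and 0.54 ± 0.33 (adjusted p = 0.612). RAMP3 in muscle was at 9.24, 5.45, 11.6, 13.0 and 13.5 CPM in cows and 10.9, 11.8, 1.59, 3.31 and 5.11 CPM in bulls, with a change of -0.68 ± 0.46 (adjusted p = 0.622).

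VEGFA overlapped between the sexes in all 4 tissues, with log2 fold changes of bulls against cows of -0.57 ± 0.51 in fat, -0.31 ± 0.27 in the pituitary gland, -0.18 ± 0.38 in muscle and 0.02 ± 0.32 in liver. The value in fat moved with single libraries, to -0.32 without bull 5 and -0.80 without cow 2. The 2 tissues in which ADM separated the sexes were therefore not separated by VEGFA, whose muscle values were 71.6, 75.7, 154, 206 and 296 CPM in cows and 108, 90.7, 167, 158 and 169 CPM in bulls. In muscle the 2 cows with the most ADM, cow 1 and cow 2, had the least VEGFA. Among bulls it was the other way, since the 2 with the least ADM, bull 1 and bull 2, also had the least VEGFA.

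A sex difference that itself varied with the tissue was tested as an interaction of sex and tissue over all 40 libraries, which 0.335% of genes passed. No receptor subunit was among them, with adjusted p from 0.773 for RAMP2 to 0.99 for RAMP1 (edgeR likelihood ratio test). Without the liver of bull 3 and the fat of bull 5 the range was 0.733 to 0.903. For ADM the values by tissue given above are the description, and no test of them is offered, since they were used in choosing it.

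The fat libraries call for a closer look, because several of these genes had their extremes there. As a measure of RNA quality chosen after seeing the data, the log2 ratio of summed ribosomal protein mRNA (73 genes, short transcripts) to summed long mRNA (9 genes) was computed for each library. In fat it was 5.47 in bull 5, 3.18 to 3.77 in the other bulls, 4.16 in cow 2, 4.15 in cow 3 and 1.74, 1.63 and 0.36 in cows 1, 4 and 5. Bull 5 had the highest RAMP2 of all fat libraries (950 CPM) and the lowest VEGFA (8.97 CPM). Cow 2 had the second lowest VEGFA (16.7 CPM), the second highest RAMP2 (290.5 CPM) and the highest ADM (1498 CPM). ADM was 503 and 506 CPM in cows 4 and 5 and 224 to 352 CPM in the bulls, and no bull had a ratio as low as that of cows 1, 4 and 5. Without these 2 libraries ADM in fat was 622 ± 138 CPM in cows and 260 ± 45.1 CPM in bulls (SD, n = 4 each), still without overlap, and the log2 fold change of bulls against cows was -1.27. In the pituitary gland the library of bull 5, which had the highest ADM there (32.0 CPM), had the lowest ratio. It was 1.42, against 2.40 to 4.34 in the others. In muscle the ratio was 0.76 to 2.66 in cows and 2.05 to 3.39 in bulls. The part of RNA quality in the values of any of these tissues was not tested.

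**Figure D5:**
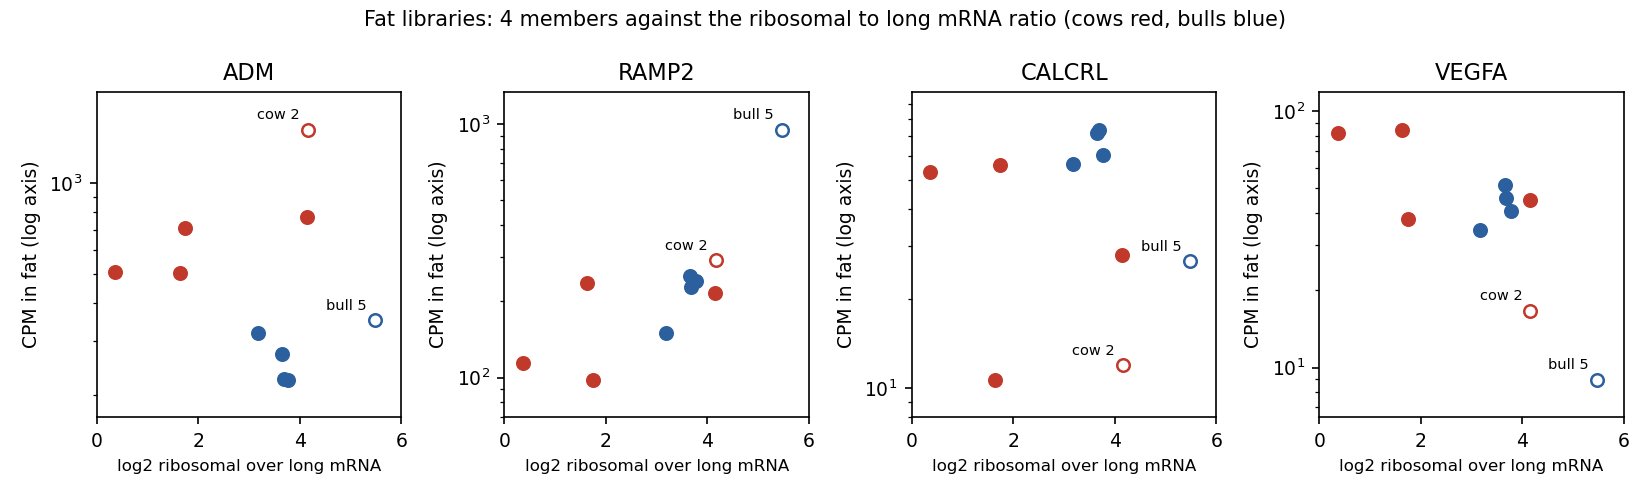
ADM, RAMP2, CALCRL and VEGFA in CPM (log axes) in the 10 fat libraries against the log2 ratio of ribosomal protein to long mRNA, cows in red and bulls in blue, with open circles for bull 5 and cow 2. Bull 5, at a ratio of 5.47, has the highest RAMP2 (950 CPM) and the lowest VEGFA (8.97 CPM), while ADM is at 503 to 1498 CPM in the cows, at ratios of 0.36 to 4.16, and at 224 to 352 CPM in the bulls, at ratios of 3.18 to 5.47.

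Other genes of the CGRP and adrenomedullin family were followed as a list of 15, of which 13 were in the files. Between the sexes 0 of the 13 were called in liver, fat and muscle and 1 in the pituitary gland, and their median log2 fold change was between -0.20 and 0.06 in the 4 tissues, against -0.06 to 0.00 over all genes tested. For this and every other gene list, the sex results given counted the liver labelled bull 3 as a bull. The call was CALCA, which encodes calcitonin and CGRP, at 0.378 ± 0.1245 CPM in cows and 0.0516 ± 0.0480 CPM in bulls (SD, n = 5 each, adjusted p = 0.0167, edgeR likelihood ratio test). It rested on 9, 4, 5, 4 and 6 reads in the cows and 1, 2, 1, 0 and 0 in the bulls, and reads of CALCA and its close copy CALCB may be hard to assign. The family genes with the smallest p in muscle did not pass. These were CXCR7, a receptor that takes up adrenomedullin without signalling through G proteins, with 74.0 ± 27.5 CPM in cows and 38.9 ± 11.8 CPM in bulls (adjusted p = 0.211), and CALCR, the calcitonin receptor, with 1.66 ± 0.90 and 3.35 ± 0.996 CPM (adjusted p = 0.323). In fat GPR182, a receptor of vessel lining cells, had the smallest p and did not pass either, at 0.393 ± 0.297 and 0.145 ± 0.0555 CPM (adjusted p = 0.745). CALCB in liver and ADM2 in fat, also named by the rule, had means under 0.03 CPM and too few reads to read a direction from.

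By tissue, CXCR7 stood out in fat, the tissue with the most ADM and RAMP2, at 179 CPM against 56.5 in muscle, 4.50 in the pituitary gland and 3.89 in liver. MME, the membrane peptidase neprilysin, stood out in muscle at 42.8 CPM, against 10.3 in the pituitary, 5.51 in fat and 0.0481 in liver. GNAS, the G protein subunit that carries the signal of CALCRL, stood out in the pituitary at 4166 CPM, against 1418 in fat, 1324 in muscle and 517 in liver. In fat against liver 5 of the 13 were higher and 5 lower, in muscle against liver 4 and 4, and in pituitary against liver 7 and 5. In muscle against fat 4 were higher and 2 lower, in pituitary against fat 6 and 1, and in pituitary against muscle 5 and 3 (edgeR quasi-likelihood test, background shares as above).

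The VEGF ligands and receptors, 8 of 10 listed genes, gave 0 calls between the sexes in any tissue, with medians from -0.30 in muscle to -0.04 in the pituitary gland. The smallest p in muscle were those of FIGF, the ligand also named VEGF-D, with 14.5 ± 10.3 CPM in cows and 5.40 ± 2.02 CPM in bulls (adjusted p = 0.22, edgeR likelihood ratio test), and of VEGFC, the ligand of lymph vessel growth, with 22.2 ± 11.8 and 11.5 ± 4.21 CPM (adjusted p = 0.352). VEGFC was lower in bulls in fat too (37.3 ± 28.4 against 18.8 ± 6.98 CPM, adjusted p = 0.745) and higher in bulls in the pituitary (3.70 ± 1.06 against 7.51 ± 2.64 CPM, adjusted p = 0.115), none of which passed. VEGFB, a ligand of FLT1, was the other gene named in fat (94.8 ± 32.9 and 155 ± 119 CPM, adjusted p = 0.82) and pituitary (39.3 ± 11.2 and 48.6 ± 7.98 CPM, adjusted p = 0.675), and in liver it had the smallest p, with 7.40 ± 3.11 and 4.89 ± 2.24 CPM (adjusted p = 0.884). NRP2, a coreceptor, followed it there with 30.5 ± 14.0 and 22.9 ± 8.07 CPM (adjusted p = 0.907). Among tissues KDR, the main receptor of VEGFA, was farthest above the rest in liver (238 CPM, against 116 in fat, 109 in muscle and 69.1 in the pituitary), FLT1, the receptor that also traps VEGFA, in muscle (186 CPM, against 25.2 to 72.5), FIGF in fat (28.1 CPM, against 0.0495 to 9.94) and PGF, placental growth factor, in the pituitary (12.6 CPM, against 0.195 to 10.4). VEGFA and KDR thus had their highest means in the same tissue.

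Genes that respond to low oxygen, 31 of 34 listed, gave 0 calls between the sexes in each tissue, beside medians of 0.10 in liver, 0.07 in both fat and pituitary gland and -0.06 in muscle. Over the 4 tissues 1 was called, P4HA1, a collagen prolyl hydroxylase, which was higher in bulls (log2 fold change 0.58 ± 0.15, adjusted p = 0.0224, edgeR likelihood ratio test). That model counted the 4 libraries of an animal as independent. With the animal as a replicate block in voom, 8 of all genes tested were called by sex over the 4 tissues, instead of 222. P4HA1 also had the smallest p in liver (31.2 ± 9.88 CPM in cows and 66.9 ± 28.5 CPM in bulls, adjusted p = 0.153) and the second smallest in muscle (61.2 ± 5.59 and 107 ± 26.5 CPM, adjusted p = 0.127). PFKFB3, a regulator of glycolysis, had the smallest p in muscle, with 1218 ± 769 CPM in cows and 448 ± 186 CPM in bulls (adjusted p = 0.0907). HILPDA, a lipid droplet protein, had it in fat, with 5.27 ± 3.42 and 1.90 ± 0.611 CPM (adjusted p = 0.614), and in the pituitary, with 4.87 ± 2.04 and 2.52 ± 1.03 CPM (adjusted p = 0.304). The others named by the rule did not pass either: ANKRD37 in liver (0.705 ± 0.482 and 0.224 ± 0.135 CPM, adjusted p = 0.525), EGLN3, an oxygen sensor, in fat (9.598 ± 4.81 and 18.7 ± 5.45 CPM, adjusted p = 0.616) and TFRC, the transferrin receptor, in the pituitary (37.7 ± 7.23 and 24.5 ± 8.49 CPM, adjusted p = 0.342). By tissue, LDHA, lactate dehydrogenase, stood out in muscle at 479 CPM against 2.19 to 41.0, ALDOC, an aldolase, in the pituitary at 100.2 CPM against 2.58 to 20.6 and HILPDA in liver at 12.3 CPM against 3.59 to 6.17. In fat against liver 16 of the 31 were higher and 6 lower, in muscle against liver 19 and 5, and in pituitary against liver 8 and 13. In muscle against fat 14 were higher and 9 lower, in pituitary against fat 5 and 16, and in pituitary against muscle 4 and 18 (edgeR quasi-likelihood test), beside the 59.6% to 64.6% of all genes called in these pairs.

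Markers of the vessel lining differed between tissues. The summed level of 12 endothelial markers was 2544 to 4369 CPM in fat, 955 to 1597 CPM in muscle, 411 to 802 CPM in liver and 199 to 401 CPM in the pituitary gland. The same order held for RAMP2 and for the mean CPM of ADM, whose liver and pituitary levels were not told apart. None of the 12 was at 0 in any group, and their part in the tissue order of RAMP2 or ADM was not tested. In fat against liver 10 of the 12 were higher and 0 lower (64.3% of all genes tested were called), and in pituitary against liver 2 and 7 (64.5%). In pituitary against fat 12 of 12 were lower (64.6%, median log2 fold change -3.56, against 0.02 over all genes). Between the sexes 0 of the 12 were called in any tissue, with summed levels of 2735 to 4104 CPM in cows and 2544 to 4369 CPM in bulls in fat and of 955 to 1597 CPM in cows and 1056 to 1354 CPM in bulls in muscle. Of 7 smooth muscle and pericyte markers, 7 were higher in fat than in liver (64.3% of all genes tested were called), and 0 were called between the sexes in any tissue. In sign, 7 of these 7 were lower in bulls in liver and 6 in muscle, and 6 were higher in bulls in fat and 7 in the pituitary gland. The summed level of these 7 in fat was 542 to 1755 CPM in cows and 1180 to 4467 CPM in bulls. Of 4 lymph vessel markers, 0 were called between the sexes, and their sum in fat was 82.8 to 181 CPM in cows and 38.0 to 238 CPM in bulls. Red cell genes were near 0 in these libraries, at most 19.2 CPM summed over 5 genes.

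Within a tissue, the level of each gene was set against the summed endothelial markers over the 10 animals, leaving out ADM in fat and muscle, where the sexes formed separate clusters. Of the 22 relations 0 had an adjusted p under 0.05. The nearest were RAMP2 in liver (Pearson r = 0.80, permutation p = 0.00931, adjusted p = 0.102, Spearman rho = 0.70, permutation p = 0.0299, adjusted p = 0.315, r = 0.74 without the 2 animals farthest from the median) and VEGFA in fat (r = -0.80, permutation p = 0.00503, adjusted p = 0.102, rho = -0.76, permutation p = 0.0152, adjusted p = 0.315). The Pearson r of VEGFA leaned on the 2 animals farthest from the median, bull 5 and cow 2, and was -0.30 without them. Their fat libraries had the highest ratios of ribosomal protein to long mRNA in fat, 5.47 and 4.16.

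The genes whose pattern was most like that of ADM were sought among the 10945 other genes with a mean of at least 1 CPM, by the Pearson correlation over the 40 libraries of the deviations from each tissue's mean (log2 of CPM + 1). They were MCOLN1 (r = 0.83), VIPR2 (0.81), NADSYN1 (0.79), PORCN (0.75) and RNF220 (0.74). The correlations stayed between 0.74 and 0.82 without the fat of bull 5 and cow 2, and fell to between 0.51 and 0.76 when deviations were taken from the mean of each sex in each tissue. For CALCRL the top genes were CNOT6L (0.81), TMX4 (0.79), SPRED1 (0.78), DDX6 (0.77) and SHOC2 (0.76). The 40 points share animals, 4 libraries each, and their differences in RNA quality, and the correlations are a description without a test. Among the 6 genes themselves the closest pair was RAMP1 and RAMP2 (0.58), whereas ADM was at -0.39 with CALCRL, -0.08 with VEGFA, -0.03 with RAMP2, -0.02 with RAMP3 and 0.12 with RAMP1.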

How the data were processed

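Poly-A RNA of 40 tissue samples was sequenced as 101 bp pairs on an Illumina HiSeq. Per the labels and the study's methods, the authors trimmed reads with Trimmomatic, aligned them to bosTau7 with Bowtie2 and TopHat2, used SAMtools, and counted reads per gene with HTSeq on the UCSC annotation. The deposited values are raw counts per gene symbol, 1 table per sample; strandedness and counting mode are not given in the sources used here. Reads outside genes (33.2% to 54.0% of a sample's counts) and a row without a gene name (0.114% to 2.69%) were left out.

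Libraries were scaled with TMM in edgeR 4.0.16 (R 4.3.3). Sex within a tissue was tested with the edgeR likelihood ratio test (5 cows against 5 bulls), sex over 4 tissues with tissue as a term, the interaction over all 40, and tissues with edgeR's quasi-likelihood test and sex as a term. Adjusted p are Benjamini-Hochberg over 13148 genes, threshold 0.05. Fold changes are fitted log2 values with SE, and 95% intervals are ± 1.96 SE. Ratios of reads had 0.5 added to each count. Alternatives were limma 3.58.1 (voom), DESeq2 1.42.0, RLE factors, filterByExpr and leaving out each animal. Permutation tests used 100000 resamples, two-sided.

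The tissues of an animal are paired by its ear tag in the titles. As a check, deviations from the group means over 10946 genes correlated with a median of 0.03 to 0.32 in the same animal and -0.10 to 0.01 in other animals of its sex, with single animals as low as -0.45. Cow and bull numbers pair nothing. Within a tissue, the p-values measure the spread between these animals. The models over several tissues counted the libraries of an animal as independent, except where the animal was a replicate block. Without that block, their p-values measure the spread between libraries.

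Members, gene lists and tests were chosen with earlier results of these data known. Named list genes are those past the threshold, or else the 2 with the smallest p, in each tissue, and the gene farthest above the other tissues; some of these are not reported here. On simulated counts for the sex difference in muscle (13148 genes, 200 changed 4-fold), the likelihood ratio test recovered 94.5% with 14.5% of its calls on unchanged genes, and the quasi-likelihood test 90% with 6.25%. For fat against liver the quasi-likelihood test recovered 98.5% with 4.37%. No sequences are printed, as none of these genes' sequences were used here.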

Additional observations from a re-analysis of the deposited data

Results flagged for a closer look

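In 4 of the 48 groups of 5 animals (6 genes in 8 groups), 1 sample stood far from the other 4 on the log2 scale by Dixon's criterion at the 95% level, and all 4 samples were from bull 5. In fat, bull 5 had CALCRL at 26.7 CPM, below the 56.4 to 73.8 CPM of the other bulls, RAMP2 at 950 CPM, above their 150 to 252 CPM, and VEGFA at 8.97 CPM, below their 34.6 to 51.6 CPM. In liver, bull 5 had VEGFA at 389 CPM, above the 159 to 197 CPM of the other bulls. Chance alone marks about 1 in 20 groups, or 5%. The fat library of bull 5 is the one with the highest ratio of ribosomal protein to long mRNA (5.47), and the part of that ratio in these values was not tested. The liver library of bull 5 had a ratio of 2.22, below the 2.70 to 3.37 of the other bull livers.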

How the results depend on the processing

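The tissue results were the steady ones. Counts of genes called between tissues stayed within 1.5 times their main value under each alternative run, and no called difference of the 6 genes changed sign. Of the 25 calls between tissues, CALCRL in pituitary against muscle and RAMP2 in pituitary against liver were lost on leaving out single animals, as given above. The animal as a replicate block changed 1 call between tissues, VEGFA in muscle against liver, which passed with it (-0.67) and also with the likelihood ratio test (-0.60), RLE size factors (-0.74), filterByExpr (-0.75) and without the liver of bull 3 and the fat of bull 5 (-0.76). VEGFA in pituitary against fat passed without those 2 libraries (-0.56). On plain library sizes the mean VEGFA level in the pituitary gland was 48.0 CPM instead of 33.7 CPM, the one level to move by more than 1 SD. For the relations to endothelial markers the count was 0 on plain library sizes too.

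Counts of genes called by sex, 23 in liver, 15 in fat, 68 in muscle, 98 in the pituitary gland and 222 over the 4 tissues, moved more. The quasi-likelihood test gave 1, 3, 7, 12 and 77, and filterByExpr gave 13 in liver and 6 in fat. DESeq2 gave 30 in fat. Without the fat of bull 5 and of cow 2, a choice made after seeing the data, 7 were called in fat. In fits without 1 animal the counts ran from 10 to 187 in liver, 5 to 22 in fat, 25 to 553 in muscle, 54 to 231 in the pituitary gland and 57 to 714 over the 4 tissues. The interaction of sex and tissue called 44 genes by the likelihood ratio test and 0 by the quasi-likelihood test (922 at an unadjusted p under 0.05), 9 to 197 without 1 animal, and 80 without the liver of bull 3 and the fat of bull 5, also chosen after seeing the data. With the animal as a replicate block in voom, 8 genes were called by sex over the 4 tissues and 13 in the interaction. The cause of these shifts was not tested. Single libraries held as few as 2 reads of RAMP1 in liver and 3 in fat.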
